A study of Gorilla gorilla with 12 samples.

Results

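The cultures described here were 7 gorilla fibroblast lines set apart by how much transcript they carried for interleukin 6 (IL6), a secreted inflammatory cytokine. They were chosen from 12 expression arrays, 11 of which held RNA of 11 lines from normal gorillas, all harvested under one standard condition. A further culture of male line 2, taken at 50% confluence, is on the remaining array and took no part in the choice. Lines whose deposited IL6 intensity was above 1300 formed the IL6-high group of 4, and those below 400 formed the IL6-low group of 3. The 4 standard lines between these limits are called the middle lines. The grouping rests on a measured value and is not a group of the study. IL6 itself is therefore described and not tested.

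The IL6-high lines were labelled female 3 (35 years), female 5 (30 years), male 4 (18 years) and male 3 (24 years). The IL6-low lines were female 6 (2 years), female 2 (19 years) and male 5 (3 years). The middle lines were female 4 (26 years), female 1 (19 years), male 2 (26 years) and male 1 (19 years). Values below are given in these orders. Sex and age are those of the donor, no genotype or treatment is recorded, and each standard line was a single array, so a p-value reflects how lines from different donors vary.

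One label went against the data. RPS4Y1, a ribosomal protein gene on the Y chromosome, stood at 2595 in the line labelled female 3, while the other 5 lines labelled female read 100 to 115 and the males 2662 to 4363. This line also had the highest IL6 and is the array above 10000, so main results are also given without it. Age ran with the grouping: the mean donor age was 26.8 years in the IL6-high, 22.5 in the middle and 8 in the IL6-low lines. The donor label of female 3, and with it the 35 years, is in doubt too, and without that line the IL6-high mean was 24 years. Only 1 IL6-low line came from an adult.

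IL6 signals by binding the receptor IL6R together with gp130 (encoded by IL6ST), which activates JAK kinases and the transcription factor STAT3. Cultured fibroblasts are a known source of IL6, and make more of it when interleukin 1 or TNF activates NF-kB. Fibroblasts can also take on a contractile, myofibroblast form, in which smooth muscle actin (ACTA2) and matrix genes are high, under TGF-beta and mechanical tension.

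IL6 intensities in the IL6-high lines were 14499, 2983, 1752 and 1369. The middle lines read 933, 908, 884 and 880, and the IL6-low lines 309, 211 and 125. The highest line stood 116-fold above the lowest, while the 4 middle lines lay within a narrow band. At the upper limit, the lowest IL6-high line was 1.47-fold above the highest middle line. At the lower limit, the lowest middle line was 2.85-fold above the highest IL6-low line. The geometric means of the 2 groups differed 15.9-fold, or 9.58-fold without female 3. The culture of male line 2 at 50% confluence read 542, against 884 for the same line at standard harvest.

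**Figure D1:**
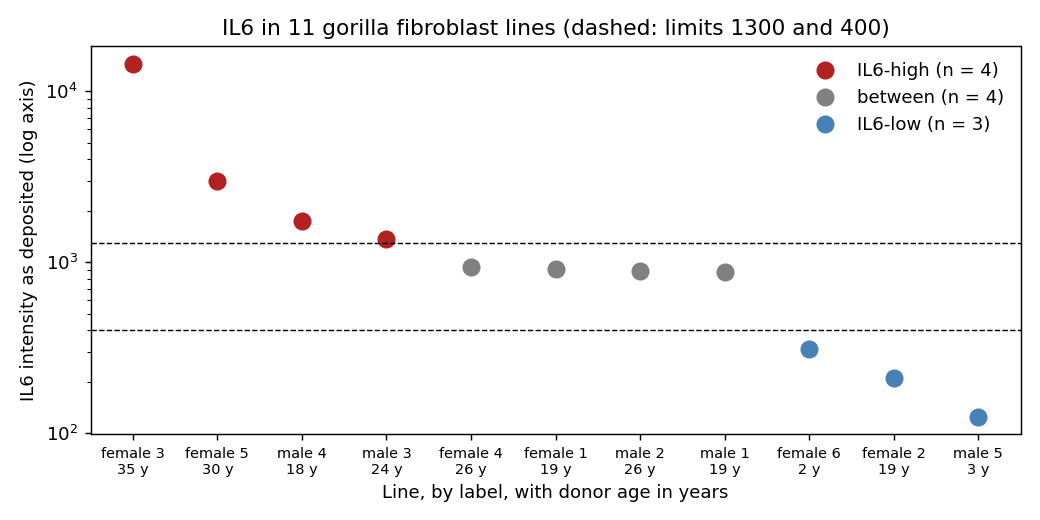
Deposited IL6 intensity (log scale) of each array, ordered from highest to lowest and coloured by group, with dashed lines at 1300 and 400. The 4 IL6-high lines run from 1369 to 14499 and the 3 IL6-low lines from 125 to 309, with the middle lines between 880 and 933.

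Over all genes, ACTA2 alone passed the test between the IL6-high and the IL6-low lines. The fit (limma, Benjamini-Hochberg adjusted p under 0.05) covered 7534 probe sets, each a set of probes for a transcript. It called 0 higher and 1 lower in the IL6-high lines, which is 0.0133% of those tested. At an unadjusted p under 0.05 there were 195 higher and 240 lower probe sets (2.59% and 3.19%). The normalized values of both groups did not overlap, with the IL6-high lines higher, in 169 probe sets (2.24%), and with the IL6-high lines lower in 260 (3.45%). Of these, 27 higher (0.358%) and 50 lower (0.664%) also differed 2-fold or more. That split was 38 higher and 39 lower when arrays were scaled to the same median instead of quantile normalized. Without female 3, limma called NPY as higher and ACTA2 and COL11A1 as lower, which is 0.0133% and 0.0265% of the probe sets. Then 55 higher (0.73%) and 78 lower (1.04%) were apart and 2-fold, but groups of fewer lines overlap less easily. Under that fit NPY differed by 2.65 on the log2 scale (adjusted p = 0.0359) and COL11A1 by -4.88 (adjusted p = 0.0359).

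ACTA2, the actin of smooth muscle and the usual mark of myofibroblasts, fell with high IL6. Its intensity was 1729, 1524, 2057 and 885 in the IL6-high lines. It was 17158, 7432 and 17653 in the IL6-low lines and 15216, 4403, 8966 and 6073 in the middle lines. Every IL6-high line lay below every other standard line. The mean was 1549 ± 494 (SD, n = 4) against 14081 ± 5764 (SD, n = 3). The difference was -3.16 ± 0.42 (log2, SE), an 8.93-fold lower level, with limma adjusted p = 0.0221. Without female 3 it was -3.23 (adjusted p = 0.0359). The direction held with donor age as a covariate (-2.93 ± 0.69), but the call did not (adjusted p = 0.999), nor among adult donors (-2.41, adjusted p = 0.941), where 1 IL6-low line is left. The call was also lost without male 3 (adjusted p = 0.101), female 6 (0.0687) or male 5 (0.273).

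Most other contractile genes were lower in the IL6-high lines as well, without passing the test. Of 20 tested members of the contractile list, 18 were lower and 2 higher, with a median difference of -0.70 (log2), while the median over all probe sets was -0.001 with 49.8% higher and 50.2% lower. In 6 of the 20 the groups did not overlap, all lower, against 3.45% of all probe sets. LMOD1, which builds actin filaments in smooth muscle, read 411, 382, 278 and 169 in the IL6-high lines and 1192, 633 and 637 in the IL6-low lines, a difference of -1.39 ± 0.34. TAGLN, an actin-binding protein of smooth muscle, read 10414, 12281, 12957 and 11585 against 22174, 17711 and 17239. The groups of both genes were apart, and in both every middle line lay above every IL6-high line. MYL9, a myosin light chain, read 7702, 4237, 5407 and 4257 against 12542, 8401 and 8829. Its middle lines read 13714, 8338, 13747 and 3247, so male 1 lay below every IL6-high line. CALD1, an actin-binding regulator of contraction, differed by -1.23 ± 0.49. In the middle lines CALD1 read 990, 2362, 2487 and 783, so female 4 and male 1 lay within the IL6-high range. TPM2, a tropomyosin, differed by -0.90 ± 0.33, with deposited values that just overlapped (8193 in female 5, 8168 in female 2). CNN1, calponin, read 100, 107, 182 and 100 against 1156, 125 and 440, so a single IL6-low line lay within the range of the IL6-high lines. The 2 members that were higher were SVIL (0.42) and MYH11 (0.35), and both overlapped. The list median was -0.64 without female 3, -0.40 with age as a covariate and -0.23 among adult donors.

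Further cytoskeletal and adhesion genes were among the 15 named genes that were lower. PALLD, palladin of actin bundles, read 3068, 1925, 926 and 1283 against 5749, 3721 and 6606 (-1.76 ± 0.37, adjusted p = 0.334). KCNMB1, a potassium channel subunit of smooth muscle, read 309, 161, 294 and 203 against 1241, 390 and 1072 (-1.78 ± 0.39). The integrins ITGA3 (-1.79 ± 0.41) and ITGA7 (-1.66 ± 0.39), both receptors for laminin, were apart as well. CDH3, P-cadherin, read 100, 123, 100 and 110 against 455, 298 and 883. AGTR1, the angiotensin II receptor, read 215, 231, 179 and 100 against 741, 731 and 691. Both came close to the threshold, with differences of -2.11 ± 0.36 (adjusted p = 0.0987) for CDH3 and -2.09 ± 0.37 (adjusted p = 0.0996) for AGTR1. The IL6-high lines lay at or near the floor of 100 for CDH3, and the true level there can be lower.

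One measure of RNA quality ran with the groups. The 3' to 5' intensity ratio of the ACTB control probe sets was 0.943 to 1.19 in the IL6-high lines and 0.672 to 0.936 in the IL6-low lines, without overlap. The same ratio for GAPDH overlapped (0.821 to 1.34 against 1.004 to 1.30). The part of RNA quality in these differences was not tested.

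**Figure D2:**
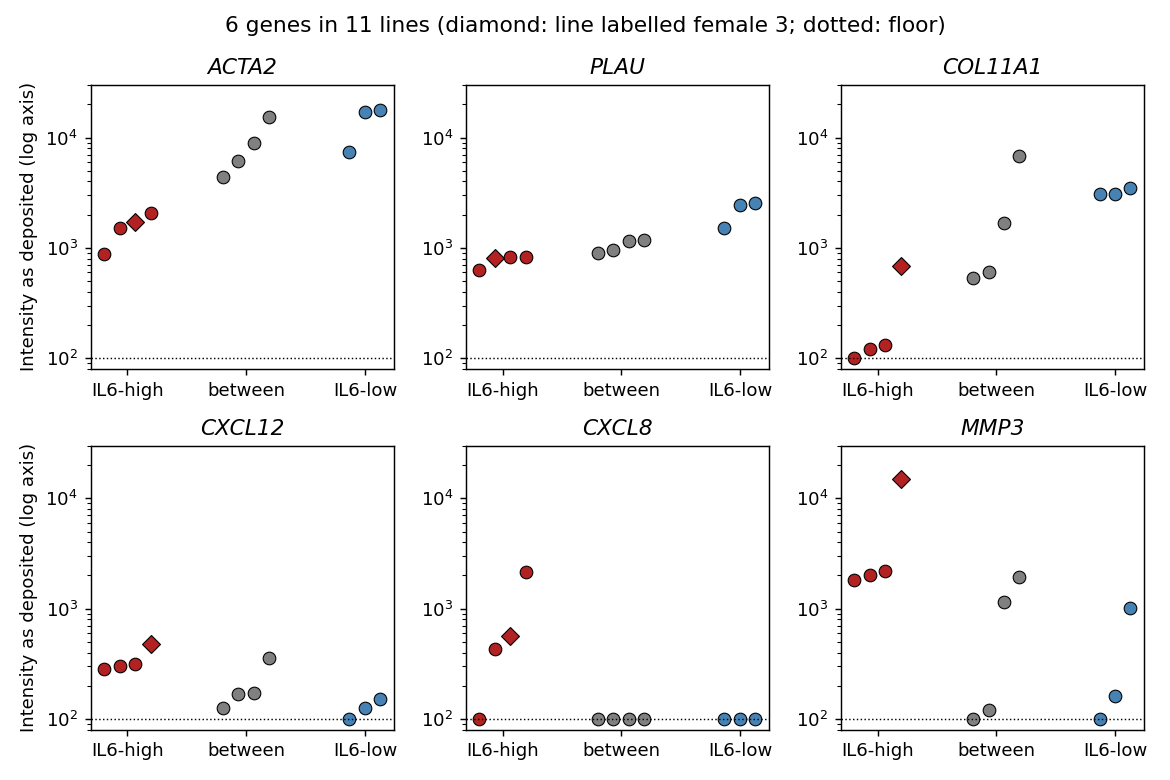
Deposited intensity (log scale) of 6 genes in each standard line, grouped as IL6-high, middle and IL6-low, with 1 point for each line (a diamond for female 3) and a dotted line at the floor of 100. In ACTA2 and PLAU all 4 IL6-high lines lie below all 7 others, while in CXCL8 values above the floor occur only in 3 IL6-high lines.

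The matrix genes did not move as a group, but a few collagens and a cartilage proteoglycan stood apart. Of 33 tested matrix genes, 22 were lower and 11 higher, with a median of -0.09, and the sign of the median turned with age as a covariate (0.10). COL11A1, a fibrillar collagen chain, read 683, 121, 131 and 100 in the IL6-high lines and 3491, 3082 and 3076 in the IL6-low lines. The groups were far apart at -4.23 ± 0.78 (adjusted p = 0.123). The middle lines spanned 538, 606, 6743 and 1676, so male 2 exceeded every IL6-low line. ACAN, aggrecan of cartilage, was at the floor in 3 IL6-high lines, read 228 in male 4, and stood at 870, 920 and 1608 in the IL6-low lines. Its middle lines read 1787, 145, 1424 and 100, so low ACAN was not particular to the IL6-high lines. Both chains of basement membrane collagen IV were lower. COL4A1 read 156, 141, 376 and 920 against 2514, 1099 and 1434, and COL4A2 read 392, 324, 478 and 1041 against 2026, 1707 and 2137. The middle lines read 242, 218, 402 and 1370 for COL4A1 and 731, 606, 637 and 2660 for COL4A2. All of them but male 1 lay within the IL6-high range, so low levels were not particular to the IL6-high lines. Male 3 was the highest IL6-high line for both chains. With age as a covariate the differences shrank to -0.91 ± 0.96 for COL4A1 and -1.21 ± 0.74 for COL4A2.

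The other named genes that were lower included secreted and signalling proteins. IGFBP2, which binds insulin-like growth factors, read 2267, 142, 2330 and 328 against 5372, 4558 and 3369 (-2.66 ± 1.01). MFGE8, a secreted protein that marks dying cells for uptake, read 3946, 1249, 7944 and 4403 against 11636, 9990 and 10633. FZD2, a Wnt receptor, read 607, 740, 868 and 364 against 1111, 2151 and 2700. MLLT11 was above the floor in female 5 alone among the IL6-high lines (147), and read 181, 604 and 666 in the IL6-low lines. The middle lines read 100, 100, 201 and 203 for MLLT11 and 1843, 594, 4951 and 244 for IGFBP2. Low levels of both were thus not particular to the IL6-high lines. IGFBP2, MFGE8, FZD2 and MLLT11 did not pass the test.

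Several chemokines were high in some IL6-high lines and at the floor elsewhere. Of 33 measured cytokines and chemokines, 13 passed the filter on dim probe sets, of which 10 were higher and 3 lower (median 0.37). The filter took the mean over all standard lines. CXCL8 and CXCL2, at or near the floor outside the IL6-high group, passed it only through IL6-high lines. The split and the median are thus in part set by the filter. The median was 0.21 without male 3, 0.66 without female 5 and 0.68 with age as a covariate. None passed the test on all lines. CXCL8 was called higher by limma without female 5, the 1 IL6-high line in which it was at the floor. Its direction was fixed by the filter, so neither this call nor its adjusted p below counts as support. CXCL8, which attracts neutrophils, read 565, 100, 427 and 2133 in the IL6-high lines. It stood at the floor in all 7 other standard lines and in the culture at 50% confluence. The geometric mean of the IL6-high lines was 4.76-fold above the IL6-low lines (difference 2.24 ± 0.67, adjusted p = 0.609). Female 5, second in IL6, was at the floor too, so this fold is not a bound. CXCL2, another neutrophil chemokine, read 446, 100, 100 and 525 against 102, 100 and 100. CXCL6 was above the floor in male 3 alone (1218), as the remaining standard lines all read 100. CCL2, which attracts monocytes, read 2022, 151, 252 and 540 against 290, 105 and 138, and the groups overlapped. CXCL12, a chemokine of stromal cells, was apart by both of its probe sets. The first read 475, 313, 299 and 284 against 100, 127 and 152 (1.46 ± 0.32, adjusted p = 0.387), and the second read 248, 303, 517 and 208 against 241, 100 and 114, which overlaps as deposited. The middle lines read 127, 356, 173 and 168 in the first and 328, 570, 188 and 437 in the second. In the second the mean of the middle lines, 380.8, exceeded the 319.0 of the IL6-high lines.

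No receptor or signalling gene of IL6 itself passed the test. Of 24 measured genes of the IL6 family and gp130 signalling, 16 were tested, 9 higher and 7 lower, with a median of 0.03 (-0.08 without female 3 and -0.25 with age as a covariate). The groups were apart in 0 of the 16, against 2.24% of all probe sets apart and higher and 3.45% apart and lower, shares at which few of 16 would be apart. IL6R was at the floor in all 7 lines except male 5, which read 101. LIFR, CNTFR and SOCS1 were at the floor on all 12 arrays. IL6ST, the shared signalling subunit, read 629, 331, 415 and 537 against 434, 264 and 418 (0.37 ± 0.32). STAT3 read 802, 779, 696 and 402 against 669, 935 and 672 (-0.20 ± 0.30), and JAK1 differed by 0.18 ± 0.25. SOCS3, the feedback inhibitor that STAT3 induces, was above the floor in male 4 (142), male 3 (192) and the middle line male 2 (176), and at the floor in female 3, the line with the most IL6. The largest difference in this list was that of IL11RA, the receptor for interleukin 11, at -0.74 ± 0.34. LIF differed by -0.50 ± 0.40, OSMR by 0.22 ± 0.34 and JAK2 by -0.24 ± 0.36, all with overlap. STAT5B (-0.44), STAT5A (-0.18), ADAM17 (0.37), ADAM10 (-0.21), TYK2 (0.10), CTF1 (0.05), PTPN11 (0.05) and PIAS3 (0.02) overlapped too, and OSM and IL11 were at or within 2 units of the floor in the 7 lines.

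Targets of STAT3 and of the acute phase response passed the test in no case either. Of 20 tested, 15 were higher and 5 lower, with a median of 0.11 (0.055 without female 3). CEBPB, a transcription factor that drives IL6 and acute phase genes, read 9342, 5129, 5137 and 5096 against 5523, 4370 and 3415, a difference of 0.41 ± 0.29. LCN2, lipocalin 2, was above the floor in male 4 (182), male 3 (319) and female 2 (109). VEGFA differed by -0.47 ± 0.41 and LBP by 0.49 ± 0.33. BCL2L1, which protects cells from apoptosis, differed by 0.50 ± 0.29.

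Of 24 tested genes of the NF-kB pathway, 16 were higher and 8 lower, with a median of 0.23. Without female 3, and likewise with age as a covariate, 13 were higher and 11 lower. TNFAIP6, a hyaluronan-binding protein induced by TNF, read 2418, 242, 381 and 622 against 334, 180 and 144, and overlapped. ICAM1, an adhesion molecule for leukocytes, read 298, 100, 201 and 123 and was at the floor in the IL6-low lines, and the middle line female 4 was the highest at 548. TNFAIP2 differed by 0.92 ± 0.52 and IRF1 by 0.86 ± 0.47. Among 18 receptors and adaptors of interleukin 1 and TNF, 8 were higher and 10 lower (median -0.05). IL1R1, the signalling receptor of interleukin 1, read 3180, 1721, 1538 and 2775 against 1871, 904 and 869 (0.92 ± 0.37). IL13RA2, a decoy receptor for interleukin 13, read 3159, 582, 334 and 1288 against 100, 646 and 218 (1.95 ± 0.73). Its difference was -0.06 with age as a covariate.

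PLAU, the urokinase that activates plasminogen, was the one gene in which all 3 groups followed in order without overlap. It read 811, 829, 829 and 636 in the IL6-high, 1159, 892, 948 and 1185 in the middle and 1513, 2528 and 2455 in the IL6-low lines. It was a member of the NF-kB list but ran against IL6, at -1.47 ± 0.25 (adjusted p = 0.0987). An order without overlap was thus found in 1 of the 7534 probe sets tested, and no probe set followed in the other order. So few can arise by chance, and the rate that chance gives was not worked out. Across all tested probe sets, the IL6-high lines lay below all 7 other standard lines in 56 and above all of them in 22.

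MMP3, stromelysin, had the largest difference among the 15 named genes that were higher. It read 15064, 1807, 2215 and 2010 in the IL6-high lines and 100, 1024 and 163 in the IL6-low lines, and the groups were apart. The difference was 3.74 ± 1.11 (adjusted p = 0.609), 3.00 without female 3 and 1.18 ± 1.59 with age as a covariate. In the middle lines it read 1140, 1918, 121 and 100, and female 1 thus exceeded female 5. MMP1, the interstitial collagenase, read 659, 343, 372 and 458 against 100, 720 and 344 and overlapped. Of 21 proteases and inhibitors tested, 15 were higher and 6 lower, with a median of 0.26, or 0.11 without female 3. The cathepsin CTSK was at 11479, 933, 11460 and 7809 against 2860, 6044 and 1374, and MMP2 differed by 0.55 ± 0.28.

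**Figure D3:**
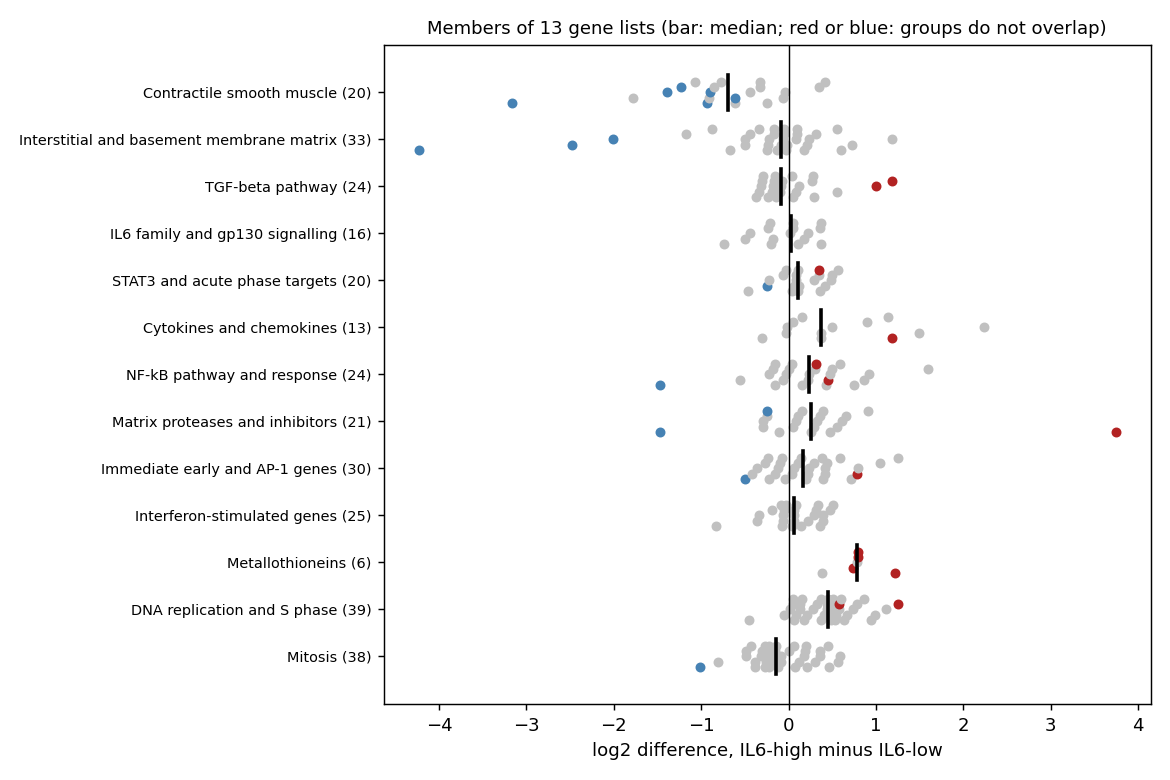
Difference between the IL6-high and IL6-low lines (log2) of each tested gene in 13 gene lists, with the list median as a bar and colour where the groups did not overlap. The contractile list has the lowest median (-0.70) and the metallothioneins the highest (0.79), and most other medians lie near 0.

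NPY, neuropeptide Y, was at the floor in all 3 IL6-low lines and read 116, 648, 419 and 981 in the IL6-high lines. Its geometric mean was at least 4.19-fold higher (2.04 ± 0.55, adjusted p = 0.492), and female 3 was the lowest of the IL6-high lines. TYMP, thymidine phosphorylase, read 292, 415, 652 and 1448 against 299, 100 and 116, so the deposited values of female 3 and female 6 overlapped. The middle lines exceeded both groups in the mean, at 918 against 702 and 172. XRCC2, a DNA repair protein, read 1082, 2067, 907 and 2064 against 456, 320 and 581 (1.73 ± 0.53). CLDN9, a claudin, read 323, 389, 268 and 425 against 100, 171 and 100. CEP170B differed by 1.65 ± 0.51, and by 0.49 with age as a covariate. SLC39A8, a zinc transporter that inflammation induces, read 574, 190, 416 and 293 against 197, 101 and 160, an overlap as deposited. MAPK12, a p38 kinase, and UBE2H, a ubiquitin-conjugating enzyme, were at the floor in all IL6-low lines and at least 2.38-fold and 2.11-fold higher in the IL6-high lines. SF3A2, a splicing factor subunit, differed by 1.25 ± 0.39 and ENPP1, which makes pyrophosphate, by 1.13 ± 0.43.

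All 6 tested metallothioneins, small proteins that bind zinc and copper, were higher in the IL6-high lines (median 0.79), and in 4 the groups were apart, against 2.24% of all probe sets. None passed the test. The probe set annotated as MT3 read 1278, 1296, 1875 and 1179 against 503, 880 and 497 (1.22 ± 0.32, adjusted p = 0.492). MT1E differed by 0.79 ± 0.27, MT1B by 0.79 ± 0.25 and MT1F by 0.73 ± 0.29, and all were apart. MT1H (0.78 ± 0.31) and MT2A (0.38 ± 0.31) overlapped. Members of this family are close copies whose probes can share signal, so these are not independent counts. The middle line male 1 (1339 for MT3) lay within the IL6-high range. The list median was 0.47 among adult donors.

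TGF-beta signalling genes were centred near 0 (10 higher and 14 lower of 24 tested, median -0.09). In 2 of the 24 the groups were apart with the IL6-high lines higher, against 2.24% of all probe sets, and in 0 with them lower, against 3.45%. TGFBR2, the type II receptor for TGF-beta, read 5600, 1292, 1472 and 1830 against 880, 1010 and 866 (1.18 ± 0.41). Without female 3 it differed by 0.71. FST, follistatin, which binds activin, read 9708, 7484, 6752 and 8737 against 2716, 6303 and 3795 (0.995 ± 0.322), but 0.24 with age as a covariate.

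Of 39 tested replication and S phase genes, 37 were higher and 2 lower (median 0.45), and in 2 the groups were apart and higher, against 2.24% of all probe sets. These were CCNE1 and the primase subunit PRIM2 (0.58 ± 0.26), whose deposited values overlap (214 in male 3, 241 in male 5). CCNE1, the cyclin of S phase entry, read 172, 227, 300 and 841 against 100, 155 and 146. The median was 0.77 without female 3, where 14 were apart and higher against 5.07% of all probe sets, and 0.11 without male 3. With age as a covariate the median was 0.89, with 38 of 39 higher. From the slope on log2 IL6 in the 9 adult donors, scaled to the gap between the groups, it was -0.32. Of 38 mitotic genes, 15 were higher and 23 lower (median -0.15), but 30 higher and 8 lower without female 3 (median 0.27), when 49.6% of all probe sets were higher and 50.2% lower. With age as a covariate 32 were higher and 6 lower (median 0.53). PLK1, a mitotic kinase, was apart at -1.02 ± 0.40 on the normalized values, while the deposited values overlap (985 in female 5, 958 in female 6). These genes varied widely within the IL6-high group, as in CDC45, a replication helicase factor (100, 270, 553 and 826 against 100, 261 and 202).

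The remaining lists had medians between -0.28 and 0.25. These were the prostaglandin genes (5 higher and 8 lower of 13, -0.28), cholesterol synthesis (3 and 13 of 16, -0.25), interferon-stimulated genes (15 and 10 of 25, 0.06), ER stress (11 and 3 of 14, 0.07), hypoxia and glycolysis (17 and 9 of 26, 0.08), cell cycle inhibitors and p53 targets (10 and 10 of 20, 0.09), senescence secretory factors (12 and 10 of 22, 0.14), immediate early genes (19 and 11 of 30, 0.17), antioxidant genes (13 and 9 of 22, 0.20) and complement (8 and 3 of 11, 0.25). Single lines moved several of these. Without male 5 the median was 0.029 for complement, -0.039 for cholesterol synthesis and -0.003 for senescence factors. Without female 2 it was 0.048 for prostaglandin genes and 0.052 for immediate early genes. Without female 3 it was 0.10 for antioxidant genes and -0.067 for cell cycle inhibitors, without female 6 -0.008 for hypoxia and without female 5 0.019 for interferon-stimulated genes and 0.16 for ER stress. PTGS2, the inducible cyclooxygenase, was above the floor in female 3 (589) and male 4 (110) among the IL6-high lines and in no IL6-low line. C1S, a complement protease, read 7285, 994, 8144 and 8295 against 2998, 3329 and 1316, so female 5 lay below all IL6-low lines. MAFF, a small MAF transcription factor, read 3941, 1040, 1516 and 3035 against 1164, 980 and 873. DUSP5, a phosphatase of ERK, was apart (273, 248, 362 and 526 against 183, 224 and 198). HSPA5, the ER chaperone BiP, read 3678, 3928, 3246 and 4853 against 2510, 2434 and 3322, with an overlap as deposited. PFKP, a glycolytic kinase, differed by 0.77 ± 0.30.

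The patterns most like that of IL6 over the 11 standard lines were those of CCND3 (Pearson r of log2 values 0.90), TGFBR2 (0.85), VEGFC (0.84), MED7 (0.83), NAB1 (0.82) and CXCL12 (0.82). Most opposite were VCAN (-0.91), IDH2 (-0.89), ATP4A (-0.84) and BPHL (-0.82). These are descriptions of the same 11 arrays from which the groups were made, and carry no p. By the probe sets ranked, the line with the highest IL6 was also the highest standard line for every gene listed as like IL6. The same line was the lowest for every gene listed as opposite. This line, whose label is in doubt, can therefore weigh heavily on the ranking, and no correlation without it is given. CCND3, cyclin D3, read 1613, 1181, 1121 and 1361 in the IL6-high, 1091, 1175, 719 and 874 in the middle and 722, 613 and 580 in the IL6-low lines. The IL6-high and IL6-low lines were apart, and female 1 lay among the IL6-high values. VCAN, versican of the extracellular matrix, read, by the probe set most opposite to IL6, 922, 1155, 1181 and 1218 in the IL6-high and 1863, 1550 and 1978 in the IL6-low lines. A brighter VCAN probe set read 2251, 1327, 1009 and 698 against 1694, 2927 and 3786, and the groups overlapped. For VEGFC, a growth factor of lymphatic vessels, the values were 1319, 1199, 632 and 769 against 406, 475 and 555. IDH2, a mitochondrial isocitrate dehydrogenase, read 351, 687, 777 and 575 against 1034, 1097 and 1289.

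The means of the middle lines mostly lay between those of the outer groups, in probe sets chosen because these were apart. Their mean of normalized log2 values fell between the other groups in 47 of the 50 lower and 19 of the 27 higher probe sets that were apart and 2-fold, and in 15 of the 15 named lower and 11 of the 15 named higher genes. The exceptions among the named genes were TYMP, SF3A2, ENPP1 and UBE2H. By that choice a mean between is likely for any lines, and no share over all probe sets is given. Line by line, only PLAU had the groups in order without overlap. For MFGE8 the deposited mean of the middle lines, 12181, was above the 10753 of the IL6-low lines. In male line 2 the culture at 50% confluence read lower than the standard culture for IL6, ACTA2 (5574 against 8966), COL11A1 (3335 against 6743) and PLAU (755 against 948), with 1 array each and no test.

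With age as a covariate no probe set passed (smallest limma adjusted p = 0.999), and the SE of ACTA2 grew from 0.42 to 0.69. These fits use the 35 years labelled for female 3, and with age but without that line ACTA2 differed by -2.85 (adjusted p = 0.9997). All 27 higher and 50 lower probe sets kept their sign, and 16 and 38 of them still differed 2-fold. Among named genes the estimate was larger in size for TYMP (3.43), NPY (2.75) and COL11A1 (-5.52), and smaller for MMP3, CEP170B and COL4A1. Age and IL6 group can be told apart only in part, since both donors under 10 years were IL6-low.

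**Figure D4:**
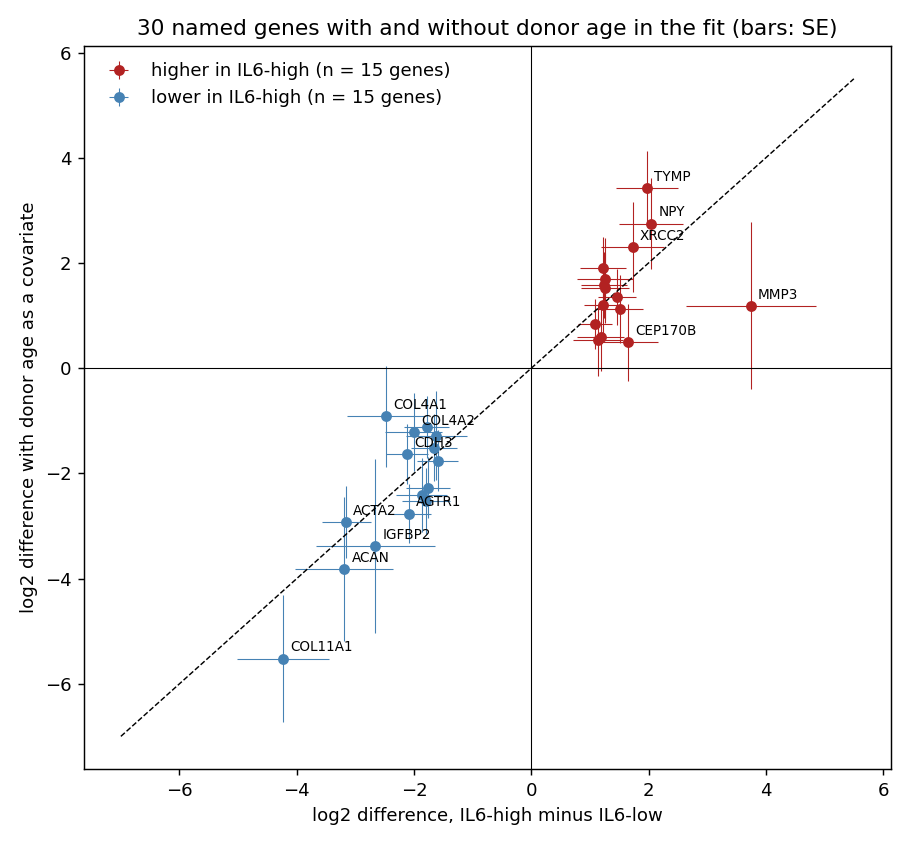
Difference (log2, IL6-high minus IL6-low, bars SE) of the 30 named genes without (x axis) and with (y axis) donor age as a covariate, where the diagonal marks equal values. All 30 named genes keep their sign, and MMP3, CEP170B and COL4A1 lie nearest to 0 relative to their value without age.

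Markers matched the fibroblast label in both groups. All 14 measured fibroblast markers were tested, 6 higher and 8 lower, with summed intensities of 92452 to 151701 in the IL6-high and 118491 to 129336 in the IL6-low lines. COL1A2 read 12733 to 18922 against 16075 to 20887. Of 22 measured leukocyte markers 10 were at the floor in all 7 lines, and PTPRC, ITGAM and CD3D were so on all 12 arrays. The leukocyte sums were 3091 to 4654 against 2945 to 5065. Others were above it in all 7 lines: CD68 read 519 to 1080 against 420 to 680, CD3E 171 to 252 against 186 to 219, and ITGAX 200 to 355 against 178 to 318. CD14 read 340, 109, 1092 and 1576 against 141, 1673 and 100. VWF of endothelium and KRT5 and KRT14 of keratinocytes were at the floor everywhere. Of 9 measured endothelial markers, however, only 2 were at the floor in all 7 lines. ERG read 232 to 370 against 154 to 266, and FLT1 114 to 185 against 204 to 255. Among the other epithelial markers, KRT8 read 965 to 1662 against 882 to 1243, KRT10 1533 to 2001 against 1635 to 2266 and KRT7 100 to 604 against 211 to 1217. The summed intensities were 1050 to 1260 against 1074 to 1337 over 9 endothelial and 4500 to 6370 against 5895 to 6253 over 15 epithelial markers. Those of 8 melanocyte and Schwann markers were 1121 to 1913 against 1231 to 1444. Of these 8 markers, 2 were at the floor in all 7 lines. MITF read 186 to 449 against 164 to 252, and ERBB3 230 to 323 against 243 to 406. In these bulk cultures, fewer cells of a kind and less RNA in each cell cannot be told apart.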

How the data were processed

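RNA of 12 gorilla fibroblast cultures had been measured on 1-colour arrays with 12625 probe sets. The authors deposited linear intensities, 1 for each probe set and array, and 40.1% to 49.2% of an array stood at the lowest value, 100. The authors' software, scaling and floor were not given in the sources used here. Probes were designed on human sequence, so levels of different genes were not compared. Of the probe sets, 10961 had 1 gene symbol, 545 several and 1119 none in the annotation table. Only the first are named.

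Intensities were taken to log2 and quantile normalized over the 12 arrays. Folds and differences come from these values, and printed intensities are as deposited. Groups at the floor on all lines give a bound ("at least") from geometric means of deposited values, where no line of the other group is at the floor. After removal of 67 control probe sets and IL6, those with a mean above the 40th percentile were tested (7534 probe sets, 5481 genes). limma 3.58.1 in R 4.3.3 was fitted to the 11 standard arrays in 3 IL6 groups (8 residual degrees of freedom), with Benjamini-Hochberg adjustment at 0.05, and was tested on simulated data. The number of arrays limits the precision. Of 695 genes in 28 lists, 613 were measured, and each was taken by its brightest tested probe set. Lists were only counted. The members and lists were chosen with earlier results of these data known.

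Named genes were the calls, filled to 15 in each direction with the largest differences among groups that did not overlap, with the brighter mean above 200 and the same direction without the array above 10000. Added to these were the IL6 family, up to 6 members of each list, the 6 genes most like and 4 most opposite to IL6, and RPS4Y1. TAGLN, TPM2, SVIL, MYH11 and PRIM2 were chosen after their values were seen. Alternatives were other scalings, filters and floors, array weights, 7 arrays only, adult donors only, age or labelled sex as a covariate, slopes on IL6, and leaving out each line. No pair of arrays held identical values.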

Additional observations from a re-analysis of the deposited data

Results flagged for a closer look

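Of 40 gene values tested within the 4 IL6-high lines, 5 had a line far from the other 3 (Dixon's test at 95%), and chance gives about 1 in 20. MMP3 read 15064 in female 3 against 1807 to 2215 in the other IL6-high lines. COL11A1 read 683 in female 3 against 100 to 131. ACAN read 228 in male 4 and MLLT11 147 in female 5, where the other IL6-high lines were at the floor of 100, so that any value above it would have stood apart. These 2 say nothing against the chance rate. RPS4Y1 read 100 in female 5 against 2595 to 4363 in the others, among them the line labelled female 3. As a gene of the Y chromosome it separates female from male cells, so this flag says nothing against the chance rate either. The flags left, MMP3 and COL11A1, are about as many as chance gives.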

How the results depend on the processing

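No paired analysis was possible because the replicate numbers only name the lines. Alternatives gave 756 values for 38 genes, those named by size of difference or by correlation with IL6. Of these values 0 changed direction, 12 lost the call of ACTA2 and 8 gained a call. Most of the 38 were chosen because their groups did not overlap, so leaving out a line could not turn their sign. Genes named only from the lists were not counted here, and IL13RA2 among them changed sign with age as a covariate. ACTA2 differed by between -3.53 and -2.002 under all settings (limma adjusted p 0.0121 to 0.9997), and its call was also lost with no filter on dim probe sets (0.276), where TIAL1 was the 1 lower call instead, a floor of 200 (0.232), 7 arrays only (0.0632) and labelled sex (0.0557). The count of lower calls went from 1 to 0 with a floor of 200, with 7 arrays, in adult donors, with age, with labelled sex and on both slopes, and with age after leaving out female 3, which was chosen after seeing the data. Array weights gave 1 higher and 5 lower calls. In adult donors, the lone IL6-low line is assumed to vary like the other groups. Probe sets apart and 2-fold numbered 11 higher with a floor of 200, and 109 higher and 142 lower in adult donors. Leaving out a line gave 0 to 1 higher calls (1 without female 3 or female 5) and 0 to 3 lower calls (0 without male 3, female 6 or male 5, 2 without female 3 or female 5 and 3 without female 2). It gave 37 (without male 3) to 95 (without female 2) probe sets apart and 2-fold higher, and 45 to 127 (the same lines) apart and 2-fold lower. Groups of fewer lines overlap less easily, so higher counts here are no sign of larger differences. List medians moved beyond the spread between lines in 30 of 418 values. They were 0.20 for ER stress with median scaling, 0.055 for NF-kB and -0.000 for prostaglandin genes with no filter, 0.25 for cell cycle inhibitors with a filter at the 60th percentile, and -0.027 for prostaglandin genes with a floor of 200. In adult donors they were 0.04 for prostaglandin genes, -0.05 for proteases, -0.23 for contractile genes, 0.001 for TGF-beta, 0.25 for ER stress, -0.15 for antioxidant genes, 0.47 for metallothioneins and 0.083 for cholesterol synthesis. With age they were -0.25 for the IL6 family, -0.40 for senescence factors, 0.10 for matrix, -0.17 for TGF-beta, -0.12 for hypoxia and -0.12 for antioxidant genes. On slopes they were -0.08 for prostaglandin genes over 11 arrays. Over 9 adults they were 0.19 for the IL6 family, 0.044 for prostaglandin genes, -0.29 for contractile genes, 0.002 for TGF-beta, -0.32 for S phase and 0.12 for cholesterol synthesis. Leaving out a line gave 0.16 to 0.39 for NF-kB, -0.34 to 0.048 for prostaglandin genes and -0.067 to 0.19 for cell cycle inhibitors. The cause of these shifts was not tested. Values at the floor and the number of arrays limit what can be seen.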
